A study of Mus musculus with 4 samples.

Results

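The nuclear genes for subunits of the mitochondrial respiratory chain were followed in cultured mouse macrophages with and without Hem1, the hematopoietic member of the WAVE complex that is encoded by Nckap1l. The genes were chosen by symbol, with earlier results of these data known. They were Nduf genes of series A, B, C, S and V that end in a number (complex I) and Sdha to Sdhd (complex II). To these were added symbols that begin with Uqcr (complex III) and Cox genes of families 4 to 8 (complex IV). This gave 65 genes of the 19505 with a single symbol on the array, 35 for complex I, 4 for complex II, 8 for complex III and 18 for complex IV. Each had a single probe set, so no choice between probe sets was needed.

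The respiratory chain, in the inner mitochondrial membrane, passes electrons from nutrients to oxygen. Complex I takes them from NADH, complex II from succinate as the same enzyme that serves the TCA cycle, and both hand them to ubiquinone. Complex III passes them on to cytochrome c and complex IV to oxygen, and complexes I, III and IV pump protons that drive ATP synthesis. Most subunits are encoded in the nucleus and a small core in mitochondrial DNA. Complexes I, III and IV are thus built from both genomes, and complex II from nuclear genes alone. In macrophages the balance between this chain and glycolysis is known to shift with activation, and succinate oxidation by complex II is known to feed the production of reactive oxygen there.

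RNA came from macrophages grown out of the femoral marrow of WT mice and of Hem1 KO mice for 8 days, fed with 20% L929 cell supernatant and 10% fetal calf serum, with no further treatment named in the labels. Each genotype is represented by 2 arrays, which per the design text come from distinct mice. The age, sex and strain of the mice, and the part of Nckap1l that was removed, are not given in the sources used here. Values are log2 signals, differences are Hem1 KO minus WT on that scale, SE is limma's standard error, and n is 2 arrays per genotype throughout.

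Nckap1l read 11.37 and 11.11 in the WT cultures against 10.04 and 9.62 in the Hem1 KO cultures, a difference of -1.41 (SE 0.32, limma adjusted p = 0.0467), a call that was lost when WT replicate 1 (adjusted p = 0.381), WT replicate 2 (adjusted p = 0.128) or Hem1 KO replicate 2 (adjusted p = 0.0874) was left out. If the probes lie outside the removed part, this reading does not check the deletion. Of 9 measured macrophage markers, 9 lay above background on all 4 arrays, with medians per array of 11.39 to 11.98. Of 9 measured stromal markers, 6 were called higher in the Hem1 KO cultures and 0 lower, with a median difference of 1.94, and 2 (Lum and Thy1) lay below background on all arrays. In these bulk cultures fewer cells of a type and less RNA per cell cannot be told apart. Bright genes as a whole read slightly lower in Hem1 KO macrophages: the median difference was -0.13 over the 3659 genes with a mean signal of 9 or more and 0.01 over all 19505 genes. The value for bright genes rests in part on single arrays and on the scaling. It was -0.02 when WT replicate 1 was left out and -0.24 when WT replicate 2 was. After quantile normalization it was -0.02, and after centring the arrays on their medians it was -0.23.

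For reference, the RefSeq windows around the start sites (250 bases before to 50 after, GRCm38.p6) are given for the member that limma called, for its ubiquitous counterpart, and for the complex II genes that have a window, which lay lower together. Capitals mark matches to any of 4 motifs searched on both strands: the NRF1 core CGCANGCGC, the ETS core CCGGAAGT, the YY1 core AANATGGCG and the ERR site TCAAGGTCA.
Cox6b2, chr7:4753045-4753344, minus strand: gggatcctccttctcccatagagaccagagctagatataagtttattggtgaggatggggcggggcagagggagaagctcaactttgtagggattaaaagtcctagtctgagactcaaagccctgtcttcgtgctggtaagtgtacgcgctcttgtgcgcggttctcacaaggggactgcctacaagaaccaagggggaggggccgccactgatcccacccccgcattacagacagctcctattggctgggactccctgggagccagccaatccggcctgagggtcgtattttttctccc
Cox6b1, chr7:30626065-30626364, minus strand: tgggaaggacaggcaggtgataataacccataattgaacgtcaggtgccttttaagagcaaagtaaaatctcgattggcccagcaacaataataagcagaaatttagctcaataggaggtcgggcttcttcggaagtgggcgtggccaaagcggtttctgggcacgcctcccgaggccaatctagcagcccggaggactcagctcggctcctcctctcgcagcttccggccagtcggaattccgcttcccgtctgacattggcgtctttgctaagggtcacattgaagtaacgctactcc
Sdha, chr13:74350191-74350490, minus strand: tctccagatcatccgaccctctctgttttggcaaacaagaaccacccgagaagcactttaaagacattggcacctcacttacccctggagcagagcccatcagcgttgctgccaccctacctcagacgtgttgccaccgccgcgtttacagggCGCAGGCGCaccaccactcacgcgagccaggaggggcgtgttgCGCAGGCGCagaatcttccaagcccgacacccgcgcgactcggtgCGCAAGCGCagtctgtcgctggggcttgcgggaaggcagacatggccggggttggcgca
Sdhb, chr4:140961021-140961320, plus strand: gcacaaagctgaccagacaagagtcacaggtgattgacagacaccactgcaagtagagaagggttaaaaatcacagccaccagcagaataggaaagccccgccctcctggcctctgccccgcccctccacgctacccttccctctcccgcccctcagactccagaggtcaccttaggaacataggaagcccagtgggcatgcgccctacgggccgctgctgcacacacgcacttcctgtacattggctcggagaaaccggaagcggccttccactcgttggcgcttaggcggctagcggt
Sdhd, chr9:50603800-50604099, minus strand: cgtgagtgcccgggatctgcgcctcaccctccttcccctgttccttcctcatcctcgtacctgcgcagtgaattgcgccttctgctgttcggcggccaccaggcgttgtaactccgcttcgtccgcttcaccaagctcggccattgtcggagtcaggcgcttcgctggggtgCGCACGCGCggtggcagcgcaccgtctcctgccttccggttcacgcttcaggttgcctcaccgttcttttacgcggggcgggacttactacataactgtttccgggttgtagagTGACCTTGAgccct

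The 4 factors behind these motifs are known regulators of nuclear genes for mitochondrial proteins. Of the 65 members, 53 matched a gene with a window. The NRF1 core stood in the windows of 15 of them (28.3%), against 7.12% of all 27025 genes with a window. The YY1 core stood in 7 (13.2% against 2.76%), all of complex I, the ETS core in 4 (7.55% against 4.31%) and the ERR site in 1, Sdhd (1.89% against 0.466%). Sdha held the NRF1 core 3 times and Sdhd once, while the windows of Cox6b2, Cox6b1 and Sdhb held none of these exact letters. The NRF1 core was present in 9 of 32 windows of complex I, 2 of 3 of complex II, 3 of 5 of complex III and 1 of 13 of complex IV (Cox6a1). The window of Cox6b2 also overlaps the neighbouring gene Fam71e2, that of Sdha overlaps Ccdc127 and that of Sdhd overlaps Timm8b, which codes for a mitochondrial import protein.

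Limma called 1 of the 65 members at an adjusted p under 0.05, Cox6b2, which was higher in Hem1 KO macrophages, and called 0 lower. Over all genes 1.48% were called higher and 0.133% lower, 1.61% in all, and 5.2% had an unadjusted p under 0.05, so that 1 call among 65 members lies near the share of all genes. The other 64 differences ran from -0.48 to 0.56, with an adjusted p close to 1 for each, 0 of them at an unadjusted p under 0.05, and 56 of them smaller than 0.25 in size. The 95% intervals of these 64 reached from -1.16 at the lowest to 1.25 at the highest, so that changes beyond 2.24-fold downward or 2.38-fold upward lay outside every one of them, while smaller changes were within reach of the error.

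Most of the members were bright, and their arrays agreed closely. On all 4 arrays 63 of 65 lay above background, which was set at the 95th percentile of 1448 chemosensory receptor genes on each array. Replicate 1 read higher over all genes in both genotypes, with medians of 6.82 against 6.42 for WT and 6.95 against 6.49 for Hem1 KO. This shift is part of the gaps over all genes. The median gap between both arrays of a genotype was 0.13 for WT and 0.11 for Hem1 KO, against 0.30 and 0.41 over all genes and 0.23 and 0.19 over genes with a mean of 9 or more. The SE of a member, 0.31 to 0.36, therefore reflects mainly the spread that limma borrows from all genes (prior SD 0.33), beside a median SD of 0.10 within the genotypes for the members themselves. The members' median difference was -0.08, and 49 of 65 lay under 0, a direction that turned after quantile normalization (0.03, with 27 under 0). Among the 50 members with a mean of 9 or more the median was also -0.08, with 39 under 0. For all 3659 genes that bright the median was -0.13, with 2656 under 0.

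**Figure D1:**
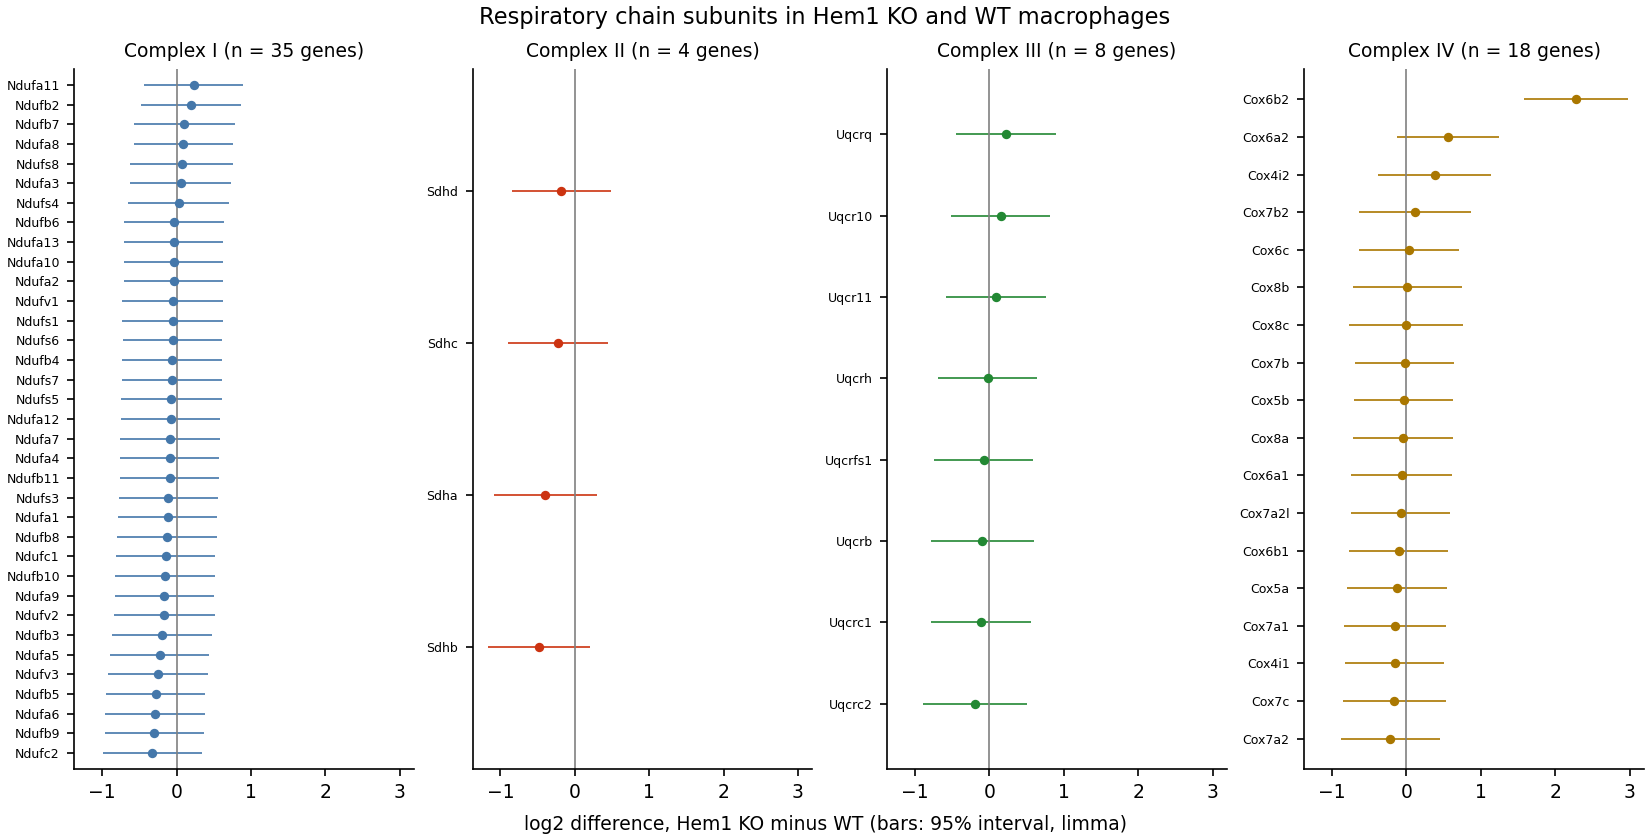
Log2 difference between Hem1 KO and WT macrophages (x axis) of each of the 65 subunit genes, by complex, with limma's 95% interval as bars (2 arrays per genotype). The interval of Cox6b2 in complex IV lies above 0, while those of the other 64 genes include 0.

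**Figure D2:**
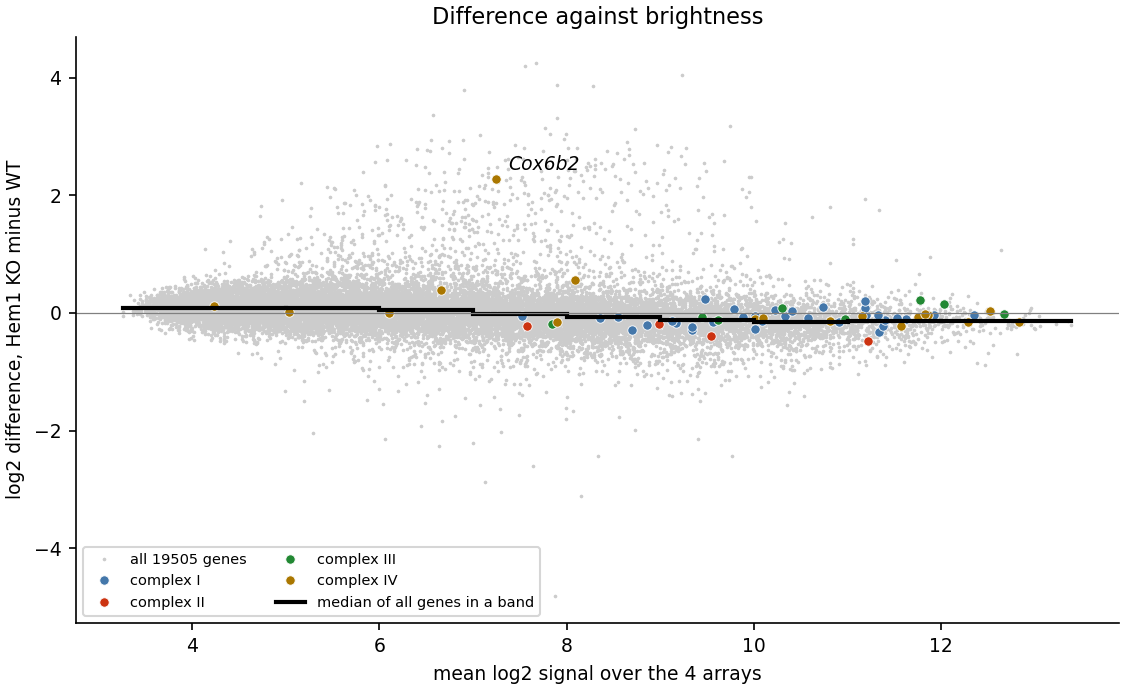
Log2 difference between Hem1 KO and WT (y axis) against the mean log2 signal over the 4 arrays (x axis) for all 19505 genes in grey and the subunit genes in colour, with black bars for the median of all genes in each band of brightness. The bars slope from 0.09 among the dimmest genes to -0.14 among the brightest, and most subunit genes lie close to them.

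Complex I, the NADH dehydrogenase, showed no subunit that passed the test: limma called 0 of 35, with 0 at an unadjusted p under 0.05. The median difference was -0.08 and 28 of 35 lay under 0, while after quantile normalization the median was 0.05 and 15 lay under 0. Ndufc2, an accessory subunit of the membrane arm, had the lowest difference. It read 11.57 and 11.42 in the WT cultures against 11.19 and 11.15 in the Hem1 KO cultures (-0.32, SE 0.31, 95% interval from -0.99). Both Hem1 KO arrays thus lay below both WT arrays, as they did for 14 of the 35 genes. Over all genes 13.3% had such an order, and 34.1% of genes with a mean of 9 or more. The opposite order held for 3 of the 35, against 12.5% of all genes. After centring 5 of the 35 were lower in this way (24.7% of all genes) and 0 higher, and after quantile normalization 8 were lower (21.9%) and 6 higher (17%).

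Among the nuclear core subunits, which carry the flavin and the iron-sulfur clusters, 6 were measured. Ndufv1, which binds NADH, read 10.16 and 9.91 in WT against 9.95 and 10.02 in Hem1 KO macrophages, with overlapping arrays. Its partner Ndufv2 stood at -0.16, and Ndufs1, the largest subunit, at -0.05. Ndufs3, Ndufs7 and Ndufs8 stood at -0.11, -0.06 and 0.07. The core as a whole had a median of -0.06, and the 29 accessory subunits had a median of -0.09. Of these 6 values, 5 changed sign under at least 1 alternative, all but that of Ndufv2.

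The accessory subunits spread over both sides of 0. Below it, next to Ndufc2, were Ndufb9 (-0.30), with 8.85 and 8.83 in WT against 8.57 and 8.52 in Hem1 KO macrophages, and Ndufa6 (-0.29), with 9.54 and 9.43 against 9.21 and 9.19. For both genes the arrays of the genotypes did not overlap. Above it were Ndufa11 (0.23), a subunit of the membrane arm, with 9.38 and 9.34 against 9.59 and 9.59, Ndufb2 (0.20) and Ndufb7 (0.10). The A series of 13 genes had a median of -0.08, the B series of 10 genes -0.11, and the S and V series of 10 genes -0.06. Ndufa4, named for complex I but now placed in complex IV, read 11.36 and 11.38 against 11.27 and 11.28 (-0.09, and 0.05 after quantile normalization).

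Complex II, succinate dehydrogenase, lay lowest of the complexes, with all 4 subunits below 0 and no overlap between the genotypes' arrays for any of them, though limma called 0 of 4 and 0 had an unadjusted p under 0.05. The median difference was -0.31. Sdhb, the iron-sulfur subunit, read 11.57 and 11.34 in the WT cultures against 10.82 and 11.13 in the Hem1 KO cultures, 1.39-fold lower (-0.48, SE 0.32, 95% interval -1.16 to 0.20, unadjusted p = 0.154). Sdha, the flavoprotein that oxidises succinate, read 9.99 and 9.49 in WT against 9.32 and 9.37 in Hem1 KO macrophages (-0.39, SE 0.32). Its gap rests on WT replicate 1: without that array the difference was -0.15.

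The membrane anchors followed with smaller differences. Sdhc read 7.81 and 7.58 in WT against 7.45 and 7.48 in Hem1 KO macrophages (-0.23, SE 0.31). Sdhd read 9.08 and 9.06 against 8.92 and 8.87 (-0.18, SE 0.31), with a gap between genotypes that was larger than the gap within either of them. The share of all genes with both Hem1 KO arrays below both WT arrays was 13.3%, and 34.1% among genes with a mean of 9 or more. That brighter class holds Sdha and Sdhb, but not Sdhc or Sdhd. The order held for 3 of the 4 genes after quantile normalization (21.9% of all genes) and for 2 of 4 after centring (24.7%). After centring or quantile normalization the 4 genes stood between -0.58 (Sdhb, centred) and -0.12 (Sdhd, quantile normalized). The median of the complex was -0.16 when WT replicate 1 was left out and -0.47 when WT replicate 2 was. The macrophage markers lay lower beside it, 9 of 9 under 0 with a median of -0.30. Limma called 0 of them, with 1 at an unadjusted p under 0.05. Of all 3659 genes with a mean of 9 or more, 2656 lay under 0, with a median of -0.13. The part of the markers in the result was not tested.

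**Figure D3:**
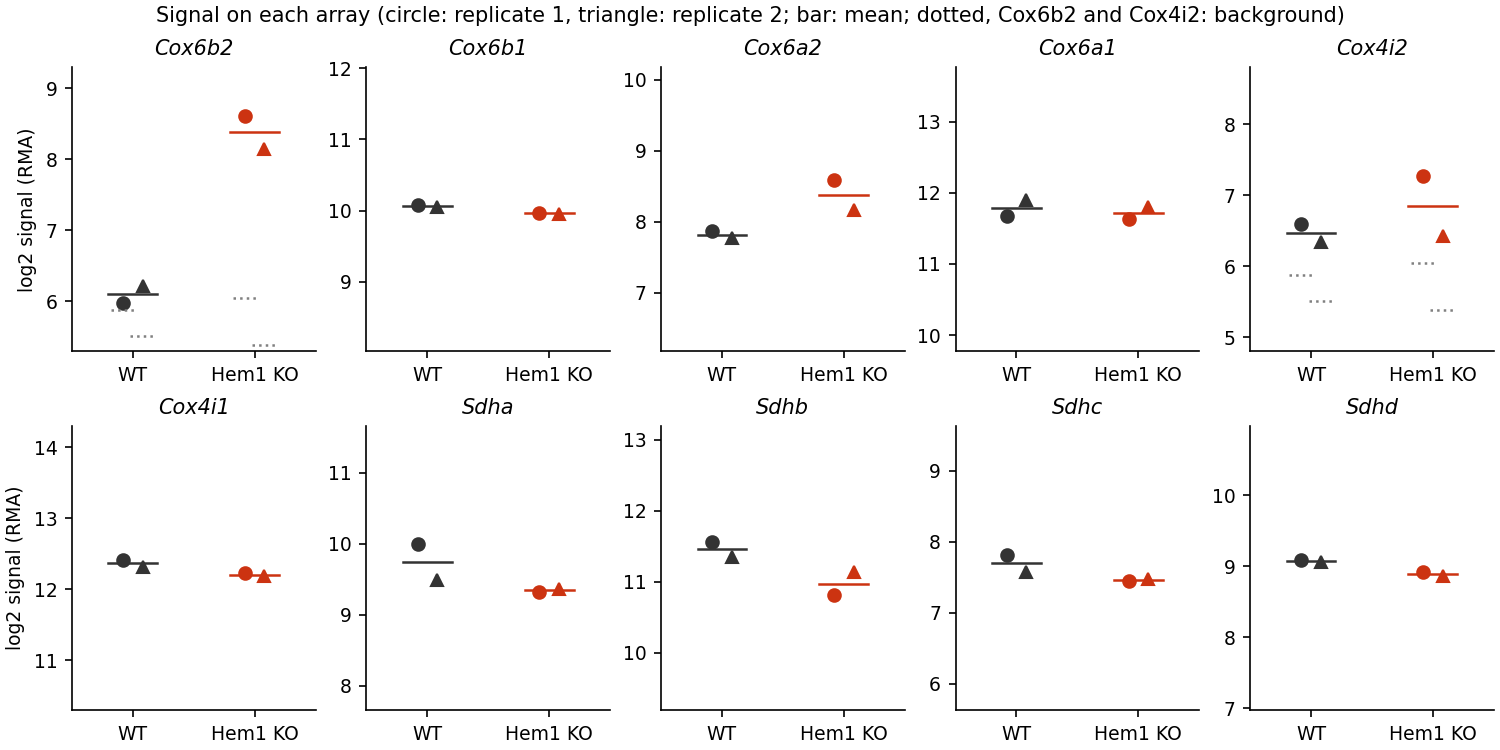
Log2 signal (y axis, 4 units high in each panel) of 10 subunit genes on each WT and Hem1 KO array, with replicate 1 as circles, replicate 2 as triangles and a bar for the mean of each genotype; dotted lines in the panels of Cox6b2 and Cox4i2 give the background of each array. Cox6b2 lies near background in WT and at 8.15 and 8.62 in Hem1 KO macrophages, while the Sdh genes lie slightly lower in Hem1 KO macrophages.

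Complex III, the cytochrome bc1 complex, had a median close to 0. Limma called 0 of 8, with 0 at an unadjusted p under 0.05, and the median was -0.05 (0.09 after quantile normalization and 0.05 without Hem1 KO replicate 2). Uqcrfs1, the Rieske iron-sulfur protein, read 9.53 and 9.44 in WT against 9.38 and 9.44 in Hem1 KO macrophages. The core proteins Uqcrc1 and Uqcrc2 stood at -0.12 and -0.19, and Uqcrb, which binds ubiquinone, at -0.09, all with overlapping arrays. Uqcrh, which helps to bind cytochrome c1, stood at -0.03 with overlapping arrays. The highest values were those of Uqcrq and Uqcr10, both small subunits. Uqcrq read 11.57 and 11.75 against 11.83 and 11.93 (0.22, SE 0.31), and Uqcr10 read 11.93 and 11.99 against 12.13 and 12.08 (0.15). For these 2 genes the arrays did not overlap, as for 12.5% of all genes in that direction. Uqcr11 stood at 0.09 (-0.02 when WT replicate 1 was left out).

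Complex IV, cytochrome c oxidase, had small differences in its ubiquitous subunits. The 11 of them had a median of -0.08, with 0 called by limma and 0 at an unadjusted p under 0.05, and 10 lay under 0. Cox4i1, the main form of subunit 4, read 12.41 and 12.32 in the WT cultures against 12.23 and 12.18 in the Hem1 KO cultures (-0.16, SE 0.31). Cox7a2 (-0.21), with 11.72 and 11.65 against 11.55 and 11.38, had the lowest difference of the complex. Cox7c, at 13.00 and 12.82 against 12.95 and 12.55, stood at -0.16 with overlapping arrays (0.04 without Hem1 KO replicate 2).

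The remaining ubiquitous subunits had smaller differences. Cox5a stood at -0.13, Cox6b1 at -0.10, Cox7a2l, which links complexes III and IV into supercomplexes, at -0.08, Cox6a1 at -0.06, Cox8a at -0.05, Cox5b at -0.04, Cox7b at -0.02 and Cox6c at 0.04. After quantile normalization 6 of the 18 genes of complex IV lay under 0, against 12 as deposited, and among those above it were then Cox6a1, Cox6b1, Cox7a2l, Cox7b and Cox8a. Cox7b was the most even of all, with 11.83 and 11.84 in WT against 11.81 and 11.81 in Hem1 KO macrophages.

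Cox6b2, a form of subunit 6B known from testis, was the member that limma called. It read 5.98 and 6.22 in the WT cultures against 8.62 and 8.15 in the Hem1 KO cultures. The WT values lay just above the background of 5.88 and 5.51 on these arrays, and the Hem1 KO values well above the background of 6.04 and 5.38. The signal was 4.86-fold higher in Hem1 KO macrophages (log2 difference 2.28, SE 0.33, 95% interval 1.58 to 2.98, limma adjusted p = 0.00253), the 104th highest difference among 19505 genes. Over the alternatives the difference ran from 2.05, without Hem1 KO replicate 1, to 2.52, without Hem1 KO replicate 2, with an adjusted p of 8.58e-08 to 0.0236. Fits with a single array in an arm gave smaller adjusted p-values than all 4 arrays together and are weak evidence of stability.

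Cox6b1, the ubiquitous form, read 10.08 and 10.05 in WT against 9.96 and 9.96 in Hem1 KO macrophages (-0.10, SE 0.31). Both Hem1 KO arrays lay below both WT arrays, as for 34.1% of genes with a mean of 9 or more. After quantile normalization its difference was 0.001. The stromal markers were higher beside Cox6b2, 6 of 9 called with a median of 1.94 and medians per array of 7.22 and 6.50 in WT against 9.22 and 8.38 in Hem1 KO cultures, and their part in the result was not tested. Pdgfrb, a growth factor receptor of stromal cells, was the marker with the smallest p (7.96 and 7.73 against 10.22 and 10.19). The lists for muscle, neutrophil, erythroid and lymphoid cells had 0 genes called by limma, and 0 at an unadjusted p under 0.05.

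Of the other tissue forms of complex IV, 0 of 6 were called by limma and 0 had an unadjusted p under 0.05. Cox6a2, the form of subunit 6A in heart and skeletal muscle, read 7.87 and 7.76 in WT against 8.58 and 8.16 in Hem1 KO macrophages (0.56, SE 0.32, 95% interval -0.13 to 1.25, unadjusted p = 0.104). Its arrays did not overlap, as for 12.5% of all genes in that direction, and it had the highest difference after Cox6b2. With Hem1 KO replicate 1 left out, the difference of Cox6a2 was 0.35. Cox4i2, the form of subunit 4 known from lung and from low oxygen, read 6.60 and 6.34 against 7.27 and 6.43 (0.38, SE 0.35). That gap rests on Hem1 KO replicate 1, without which it was -0.03. Cox7a1, another muscle form, stood at -0.16.

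Muscle markers read slightly higher beside Cox6a2, with 6 of 7 above 0 and a median of 0.22. Over all genes with a mean under 7, 6852 of 10647 lay above 0, with a median of 0.08. The medians of the markers per array were 6.09 and 5.27 in WT against 6.09 and 5.43 in Hem1 KO cultures. Of the 7 markers, 3 lay at or below background on all arrays, and the part of the markers in these values was not tested. The testis form Cox7b2 and the muscle form Cox8b were below background on each of the 4 arrays, at 3.91 to 4.61 and 4.69 to 5.40. Cox8c, a testis form, lay just above background on each array, at 6.47 and 5.75 in WT against 6.38 and 5.83 in Hem1 KO macrophages (-0.01). Limma thus called 1 testis form of complex IV, Cox6b2, and neither of these 2.

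In the rest of the mitochondrial energy machinery limma called no gene. Limma called 0 of 17 genes of complex V, the ATP synthase, the median was -0.07, and 0 had an unadjusted p under 0.05. Of a further list of 4 genes (Cyc1, Cycs, Cyct and Ndufab1), limma called 0 and 0 had an unadjusted p under 0.05. Cyc1, the cytochrome c1 of complex III whose symbol lies outside the rule, stood at -0.16 and Cyct, the testis form of cytochrome c, at 0.15 below background. Limma called 0 of 12 TCA cycle genes, and 0 had an unadjusted p under 0.05. That list had a median of -0.14 with 10 genes under 0, where 9392 of all 19505 genes lay under 0. Among the 10 were Suclg2, a subunit of the succinyl-CoA ligase (-0.57, SE 0.32), and Cs, citrate synthase (-0.38, SE 0.31). The medians of the list per array overlapped, at 9.01 and 8.94 in WT against 8.86 and 9.10 in Hem1 KO cultures. The 76 proteins of the mitochondrial ribosome had a median of -0.04, with 0 called by limma and 0 at an unadjusted p under 0.05 (Mrpl52 at 0.54, Mrpl48 at -0.44).

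Assembly factors of complex IV lay lowest among these lists. The median of the 19 was -0.25 with 15 under 0, where 9392 of all 19505 genes lay under 0. Limma called 0 of them, though 1 was lower with an unadjusted p under 0.05. The medians of the list per array overlapped, at 8.43 and 8.03 in WT against 7.99 and 8.24 in Hem1 KO cultures. Cox17, the copper chaperone that supplies complex IV, read 10.93 and 10.66 in the WT cultures against 10.27 and 9.73 in the Hem1 KO cultures (-0.80, SE 0.33, unadjusted p = 0.0313, adjusted p = 0.730). Cox15, which makes heme A, stood at -0.44. The 14 factors of complex I had a median of 0.00 (Tmem126b at -0.37, Ndufaf5 at -0.35), the 4 of complex II a median of 0.05 (Sdhaf3 at 0.33, Sdhaf4 at -0.30) and the 6 of complex III a median of 0.08 (Uqcc3 at -0.33, Uqcc2 at 0.24). Limma called 0 genes in these 3 lists, and 0 had an unadjusted p under 0.05.

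Regulators and neighbouring pathways had medians near 0. Of 11 regulators of mitochondrial genes, among them Nrf1, Gabpa and Yy1, limma called 0, and at an unadjusted p under 0.05 there were 0. The coactivators Ppargc1b and Pprc1 stood at 0.26 and -0.26. The 12 glycolysis genes had a median near 0, and limma called 0 of them, as it did at an unadjusted p under 0.05 (Pfkl at 0.67, Pfkp at -0.37). Higd1a, which binds complex IV, stood at 0.48 (SE 0.32) among 4 alternative or accessory forms, of which 0 were called by limma and 0 had an unadjusted p under 0.05. Cytosolic ribosomal proteins, also bright genes, had a median of -0.02 over 57 genes. Their only called member was Rpl39l, a paralog of Rpl39 known from testis, at 8.35 and 7.96 in WT against 10.44 and 9.52 in Hem1 KO macrophages (1.83, SE 0.36, adjusted p = 0.0189).

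**Figure D4:**
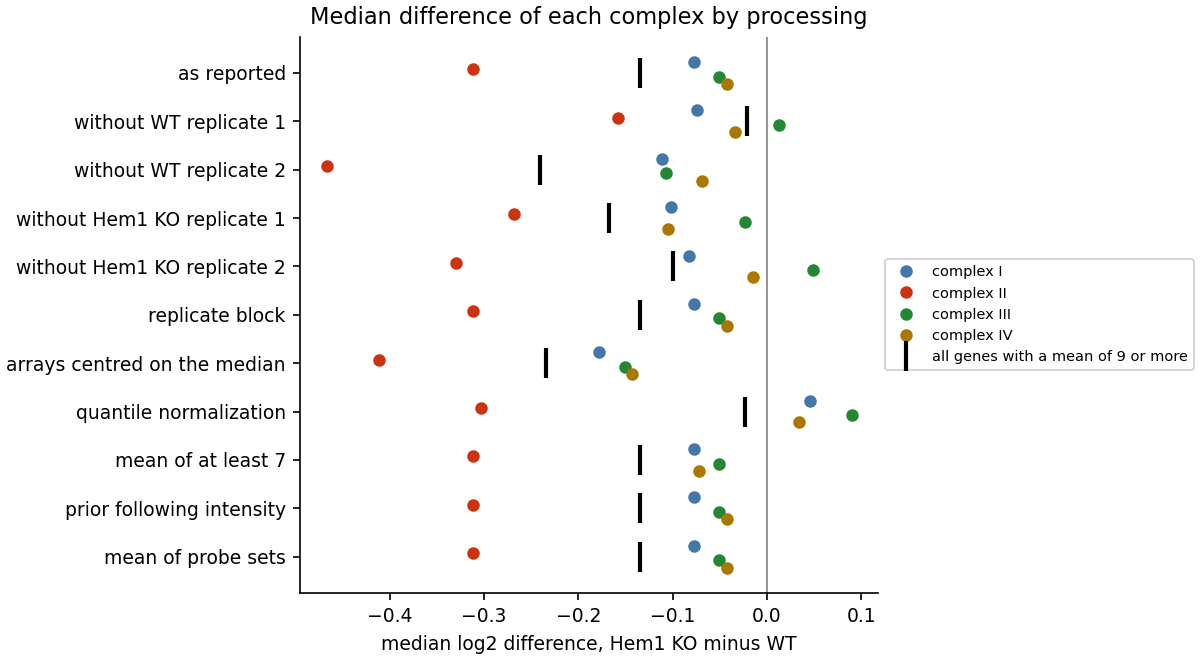
Median log2 difference between Hem1 KO and WT (x axis) of the subunits of each complex under the reported processing and 10 alternatives (y axis), with a black mark for the median of all genes whose mean signal is 9 or more. Complex II lies lowest in every line, from -0.47 to -0.16, and complexes I, III and IV lie within 0.18 of 0 on both sides. The lines for the replicate block, the prior following intensity and averaged probe sets repeat the reported medians, since these settings cannot move a member's difference. Dropping genes with a mean under 7 also leaves complex II unchanged.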

How the data were processed

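The authors deposited log2 signals for 4 arrays, made with RMA per the submitters' processing notes, which name no version or settings; the log2 scale was read from the values, 2.70 to 14.0. Of the 29129 rows, 19572 carry a single gene symbol in the annotation of the platform, and 0 members had several probe sets. For the 55 genes with several, the brightest was kept, leaving 19505 genes.

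The log2 values of all genes were tested with limma 3.58.1 (R 4.3.3; lmFit, eBayes, genotype as the only term, two-sided, Benjamini-Hochberg adjustment over all genes, threshold 0.05). With 2 arrays per genotype the smallest p of an exact permutation test is 0.333. The prior had 11.2 degrees of freedom. The number of arrays limits the precision. The fit was tested on simulated arrays.

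Members and lists were chosen with earlier results of these data known. Named were Nckap1l, called members, the 3 extremes per complex and direction above background, all Sdh genes, core subunits, isoform families and, per other list, called genes or the 2 with the smallest p; other genes were named after their values were seen. Alternatives left out each array, blocked on the replicate number, centred or quantile normalized the arrays, dropped genes with a mean under 7, let the prior follow intensity, or averaged probe sets. Sequences are RefSeq's (GRCm38.p6); mitochondrially encoded subunits were not analysed here. Motifs were searched with Python 3.11.15.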

Additional observations from a re-analysis of the deposited data

How the results depend on the processing

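Cox6b2 stayed the only member called with the replicate block, after centring or quantile normalization, and with the prior following intensity. The same held at an adjusted p under 0.1. With 1 array left out in turn its difference ran from 2.05 to 2.52. It was also called among genes with a mean of at least 7, which it reached only through Hem1 KO macrophages (mean 8.38, against 6.10 in WT). Averaging probe sets could not move any member's difference, since each had a single probe set. Complex medians were less firm. Centring the arrays gave -0.18 for complex I, -0.15 for complex III and -0.14 for complex IV, since it moved every difference by the same amount (-0.10). Quantile normalization gave 0.0456 for complex I, 0.0901 for complex III and 0.0343 for complex IV. Leaving out 1 array in turn gave -0.47 to -0.16 for complex II and -0.11 to 0.0487 for complex III and -0.10 to -0.01 for complex IV. The cause of these was not tested. Of 40 named genes, 21 changed sign under at least 1 alternative, none of them called; the largest of these in size was Cox4i2 at 0.38. The call of Nckap1l also ended when genes with a mean under 7 were dropped (adjusted p = 0.0690). Over all genes 314 were called, against 598 without Hem1 KO replicate 2, 819 with the replicate block, 614 with the prior following intensity and 135 of the genes with a mean of at least 7. The labels give the genotypes the same replicate numbers, but no shared animal or day. Deviations of same-numbered arrays correlated at 0.24 across genes. With the replicate block Cox6b2 kept its call (2.28, limma adjusted p = 1.09e-05), and 1 subunit was called. The block cannot move a difference here, since each genotype has 1 array of each number. The complex medians of -0.08, -0.31, -0.05 and -0.04 for complexes I to IV were thus the same by design.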

Other observations

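Other nuclear genes for mitochondrial proteins, listed after the data had been seen, also had medians near 0. Of 46 mitochondrial carriers of the Slc25 family, limma called 0, the median was -0.08, and 1 gene was lower at an unadjusted p under 0.05. That gene was Slc25a13, the aspartate-glutamate carrier, at 7.52 and 7.80 in the WT cultures against 6.97 and 6.89 in the Hem1 KO cultures (-0.73, SE 0.31, adjusted p = 0.808). Of 25 genes of the import machinery, limma called 0, the median was -0.02, and 0 had an unadjusted p under 0.05.

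Of 7 measured neighbours of Cox6b2, limma called 0, and 0 had an unadjusted p under 0.05. Fam71e2, whose RefSeq gene overlaps the start window of Cox6b2, read 6.62 and 6.46 in WT against 6.77 and 6.20 in Hem1 KO macrophages. The histone methyltransferase gene Kmt5c read 10.43 and 9.89 against 10.24 and 9.83, and the cytokine gene Il11 lay below background on all arrays, at 4.80 to 5.73. Among 9 metabolic isoforms known from germ cells, Cox6b2 was the only one called by limma. Of them 7 lay below background on all arrays, among them Pgk2, Ldhc, Gapdhs and Pdha2.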
